A study of Mus musculus with 8 samples.

Results

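The antioxidant and glutathione enzymes are a set of 38 genes chosen by name: superoxide dismutases, catalase, glutathione peroxidases, peroxiredoxins, the thioredoxin system, enzymes that make or use glutathione, and the regulator Nrf2 with its partner Keap1 and some of its targets. The rule that names them uses no measured value, although results of these data were known when the set was drawn up. Of these genes, 35 had a probe set that the annotation gives to that gene alone, among 18193 such genes on the array, and they were read by 73 probe sets in all. Prdx1, Prdx5 and Prdx6 had none and were not analysed here. The tissue was the retinal pigment epithelium (RPE) with the choroid, the vascular layer behind it, from male C57BL/6 mice. Young animals were 4 months old and old animals 26 months. Each age had 4 arrays, and each array held the pooled RNA of 4 RPE/choroids from 2 mice, so that an array stands for a pair of animals and the spread between mice is not seen. The labels do not name the C57BL/6 substrain, and no treatment or transgene is given for either group.

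Superoxide dismutases turn superoxide into hydrogen peroxide, which catalase, glutathione peroxidases and peroxiredoxins then reduce to water. Glutathione peroxidases draw their electrons from the tripeptide glutathione and peroxiredoxins mostly from thioredoxin, and both carriers are regenerated with NADPH by their reductases. The transcription factor Nrf2, encoded by Nfe2l2, raises many of these genes when its repressor Keap1 releases it, by binding antioxidant response elements. The RPE is known for a high load of light, oxygen and phagocytosed photoreceptor lipid.

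The values are linear intensities that the authors normalized, and a difference below is the mean log2 intensity in old minus young arrays. It comes from limma fitted to 45037 probe sets, with p-values adjusted over all of them. Rose and fell are used of genes whose adjusted p was under 0.05, and each gene is read by whichever of its probe sets had the greatest mean log2 signal. Array medians were 129 to 135, and over all probe sets no pair of arrays within an age correlated below 0.9915. The RPE identity of the tissue was plain: Ttr was at 18337 or more in each young array and Rpe65, the isomerase of the visual cycle, at 10929 or more. Macrophage markers were higher in every old array, with a summed intensity of 10 genes of 37621 to 40388 against 23319 to 26435, and 8 of the 10 rose. Markers of RPE (6 of 11 lower), endothelium (6 of 8 lower), Mueller glia (5 of 9 lower) and inner retinal neurons (5 of 10 lower) fell in part. Vim of the Mueller glia list rose by 0.19 (adjusted p = 0.0304 from limma) and Thy1 of the inner retinal list by 0.29 (adjusted p = 0.0369). Markers of rods, which come from the adjoining retina, had summed intensities of 11376 to 22647 in the young arrays and 8866 to 21907 in the old. Old replicate 2 stood apart by its neutrophil markers, with a sum of 18124 where the other 7 arrays were at 1196 to 2836. Most of that sum came from S100a8 at 7828 and S100a9 at 7062. In that array Elane at 189.2 and Cxcr2 at 174.5 lay within the range of the young arrays. Between the ages, 2 of these 9 genes rose, S100a8 and Camp, and Cxcr2 fell by 0.31 (adjusted p = 0.0268 from limma). In tissue of this kind, fewer cells of a type and less RNA per cell cannot be told apart.

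**Figure D1:**
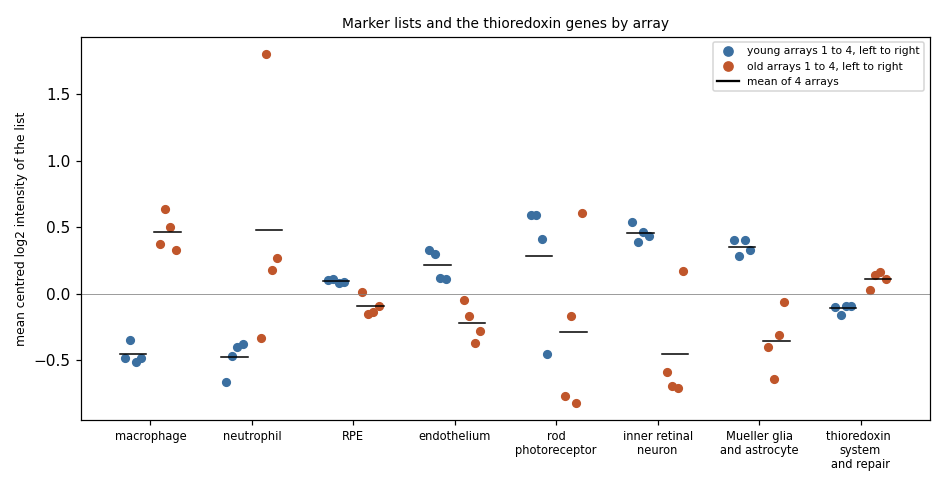
Mean centred log2 intensity (vertical axis, relative to each gene's own mean of all 8 arrays) of 7 marker lists and the thioredoxin and repair genes. The points are 4 young and 4 old arrays, with the mean of each age as a line. The macrophage list lies between -0.51 and -0.35 in the young arrays and between 0.33 and 0.64 in the old, and the neutrophil list reaches 1.80 in old replicate 2.

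In the old RPE/choroid, 10 of the 35 genes rose and 1 fell. The genes that rose were Gpx1, Prdx4, Txn1, Txnrd1, Srxn1, Glrx, Gsr, Gstm1, Hmox1 and Hmox2, and the gene that fell was Gstp1. Those that rose are 28.6% of the set, while 11.8% of all genes rose. The share that fell was 2.86%, against 9.56% of all genes. The median difference of the 35 genes was 0.088, and that of all genes was -0.016. With quantile normalization 8 of the genes rose and 2 fell, while 10.6% of all genes rose and 11.3% fell. Without old replicates 2 and 4, the arrays with the most neutrophil and the most rod and inner retinal signal among the old ones, 6 rose and 0 fell, when 5.86% of all genes rose and 3.85% fell. None of the 35 passed a fold over 2 with an adjusted p under 0.01 in limma here, which 1.13% of all genes did upward. The study's own limma list at these thresholds holds Hmox1, so that gene passed there and not here. At an unadjusted p under 0.05, 13 were higher and 5 lower, where the shares over all genes were 18.5% and 18.9%. Groups without overlap were found for 10 genes that were higher and 2 that were lower, against 15.8% and 13.7% of all genes.

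**Figure D2:**
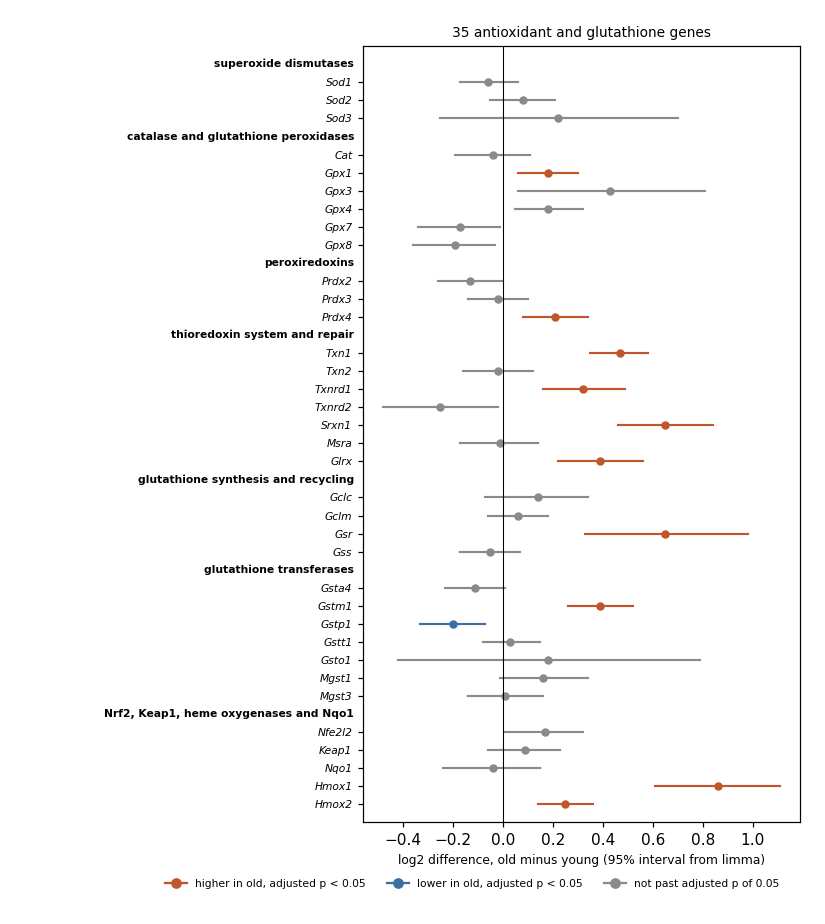
Difference in log2 intensity, old minus young (horizontal axis), with its 95% interval from limma, for 35 antioxidant and glutathione genes grouped by role. The differences run from -0.25 for Txnrd2 to 0.86 for Hmox1, and the thioredoxin and repair group holds 4 of the 10 genes that rose.

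Promoter sequence is shown for the genes that changed and whose RefSeq window (250 bases before to 50 bases after an annotated start, GRCm38.p6) holds either of a pair of motifs. The first is TGACNNNGC, the core of the antioxidant response element, and the second TGAGTCA, the site of AP-1 factors, which reads TGACTCA on the other strand. Both strands were searched, and the motifs overlap where TGACTCA is followed by GC. Windows were found for 31 of the 38 genes, and not for Sod3, Prdx6, Msra, Gclc, Gsr, Gsta4 and Hmox1. TGACNNNGC was in a window of 7 of the 31 (22.6%) and of 14% of all genes with a window. TGAGTCA was in 4 (12.9%) and in 5.95% of all genes. Of 8 genes that rose and have a window, Srxn1 and Txnrd1 held the first motif and Srxn1 and Glrx the second. Below are the 250 bases before the start, 5′ to 3′ on the gene's strand, with the motifs in capitals. They lie at chr10:82858956-82859205 (+) for Txnrd1, chr2:152105274-152105523 (+) for Srxn1, chr13:75839635-75839884 (+) for Glrx and chr19:4037913-4038162 (-) for Gstp1.
Txnrd1: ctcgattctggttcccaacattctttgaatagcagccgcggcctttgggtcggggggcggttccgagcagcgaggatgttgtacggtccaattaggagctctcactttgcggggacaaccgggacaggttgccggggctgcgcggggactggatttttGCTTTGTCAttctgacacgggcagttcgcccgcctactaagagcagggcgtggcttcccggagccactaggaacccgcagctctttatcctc
Srxn1: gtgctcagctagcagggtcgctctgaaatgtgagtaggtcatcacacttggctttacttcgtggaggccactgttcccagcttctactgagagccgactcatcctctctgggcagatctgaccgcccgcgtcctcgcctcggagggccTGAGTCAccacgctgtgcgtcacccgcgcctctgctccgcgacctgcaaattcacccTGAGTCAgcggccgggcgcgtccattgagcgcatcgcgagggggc
Glrx: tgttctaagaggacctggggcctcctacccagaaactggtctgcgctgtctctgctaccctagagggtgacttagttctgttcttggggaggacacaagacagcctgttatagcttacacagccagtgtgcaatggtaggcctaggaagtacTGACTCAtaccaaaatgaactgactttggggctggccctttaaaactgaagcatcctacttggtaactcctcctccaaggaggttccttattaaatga
Gstp1: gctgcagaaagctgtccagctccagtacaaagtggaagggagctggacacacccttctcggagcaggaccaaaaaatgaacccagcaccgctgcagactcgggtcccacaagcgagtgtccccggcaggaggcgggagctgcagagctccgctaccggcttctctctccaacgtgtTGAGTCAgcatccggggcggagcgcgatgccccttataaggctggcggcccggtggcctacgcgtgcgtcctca
The Txnrd1 match ends 84 bases before 1 of its annotated starts, and the other starts have none. Srxn1 has TGAGTCA beginning 102 and 45 bases before its start, and its TGACNNNGC match lies after the start and is not shown. Gstp1, which fell, carries TGAGTCA beginning 74 bases before its start. Gclm, Mgst1, Nfe2l2 and Sod1 also held TGACNNNGC and did not pass the test. A match is a description of the letters and not of binding.

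The group of thioredoxin, glutaredoxin and repair genes held the largest share of genes that rose, 4 of 7 (57.1%, against 11.8% of all genes). All differences of this group that passed were upward. Txn1, the cytosolic thioredoxin that hands electrons to peroxiredoxins, was at 4541, 4509, 4354 and 4535 in the young arrays and at 5873, 6110, 6544 and 6254 in the old ones. Every old array lay above every young array, and the difference was 0.47 (standard error 0.05, adjusted p = 0.00061 from limma). Srxn1, sulfiredoxin, which restores overoxidized peroxiredoxins, was at 382, 476, 413 and 387 in young and 584, 660.4, 689 and 661 in old arrays. Its difference was 0.65 (standard error 0.08, adjusted p = 0.00119), and again no old array reached down to the young range. Glrx, glutaredoxin, which removes glutathione from protein thiols, rose from 557 ± 26.0 (SD, n = 4) to 731 ± 68.1 (SD, n = 4), by 0.39 (adjusted p = 0.00826 from limma). Txnrd1, the cytosolic reductase of thioredoxin, was at 1373, 1406, 1600 and 1677 in young and 1823, 1971, 1888 and 1865 in old arrays. The young arrays fell into a lower and a higher pair, both below all old arrays, and the difference was 0.32 (standard error 0.07, adjusted p = 0.0180). Without old replicates 2 and 4, its difference was 0.30 and the call was lost (adjusted p = 0.116). The mitochondrial partners did not pass. Txn2 differed by -0.02 (95% interval -0.16 to 0.12), and its reductase Txnrd2 by -0.25 (95% interval -0.48 to -0.02, adjusted p = 0.120), with young replicate 2 at 387 within the range of the old arrays. Without that array Txnrd2 was lower, by -0.34 (adjusted p = 0.0302). Msra, which repairs oxidized methionine, differed by -0.01 (95% interval -0.17 to 0.14).

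Of the genes of glutathione synthesis and recycling, only Gsr, glutathione reductase, rose. It was at 406, 436, 401 and 392 in young arrays and at 538, 901, 604 and 583 in old ones. All old arrays were above the young, and old replicate 2, the array with the high neutrophil markers, was far above the other old arrays. The difference was 0.65 (standard error 0.14, adjusted p = 0.0146 from limma), and without old replicate 2 it was 0.49 (adjusted p = 0.00327). The second probe set of Gsr rose by 0.50 (adjusted p = 0.0331), and by 0.37 without old replicate 2 (adjusted p = 0.0409). The part of neutrophils in the level of that array was not tested. The subunits of glutamate-cysteine ligase, the rate-limiting enzyme of glutathione synthesis, did not pass. Gclc differed by 0.14 (95% interval -0.07 to 0.34), with old replicate 1 at 1313 near young replicate 1 at 1283, and Gclm by 0.06 (95% interval -0.06 to 0.18). Gss, glutathione synthetase, differed by -0.05 (95% interval -0.17 to 0.07).

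Among the heme oxygenases and Nrf2 genes, both heme oxygenases rose and the regulators did not pass by the probe sets used. Hmox1, the inducible enzyme that opens the heme ring, had the largest difference of the 35 genes. It was at 261, 303, 323 and 277 in young arrays and at 436, 602, 587 and 504 in old ones, so that the lowest old array exceeded the highest young one. The difference was 0.86 (standard error 0.11, adjusted p = 0.00116 from limma). The study listed Hmox1 as past a fold over 2 by its own limma analysis of these arrays, and its fold here was 1.82. The direction of Hmox1 is therefore not independent evidence. Hmox2, the constitutive enzyme, rose from 1529 ± 28.8 (SD, n = 4) to 1820 ± 46.2 (SD, n = 4), by 0.25 (adjusted p = 0.00835 from limma). Without old replicates 2 and 4, Hmox2 differed by 0.26 and the call was lost (adjusted p = 0.0529). Nqo1, a quinone reductase that is a classic Nrf2 target, differed by -0.04 (95% interval -0.24 to 0.15, adjusted p = 0.763). Keap1 differed by 0.09 (95% interval -0.06 to 0.23).

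Nfe2l2 gave different answers by its pair of probe sets. The one with the higher signal was at 1513, 1628, 1569 and 1603 in young and 1928, 1576, 1805 and 1799 in old arrays, where old replicate 2 fell among the young. Its difference was 0.17 (adjusted p = 0.121 from limma), and without old replicate 2 it was 0.22 (adjusted p = 0.0392). The other probe set was at 51.7, 45.5, 55.7 and 64.0 in young and 71.5, 537, 214 and 158 in old arrays. Here old replicate 2 was the highest array and old replicate 1 was close to the young ones. This probe set rose by 1.82 (standard error 0.49, adjusted p = 0.0326), and without old replicate 2 by 1.32 (adjusted p = 0.0351). In the old arrays the mean centred log2 level of the neutrophil list was -0.33, 1.80, 0.18 and 0.27 in the same order of replicates. Whether neutrophils gave the signal of this probe set was not tested.

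**Figure D3:**
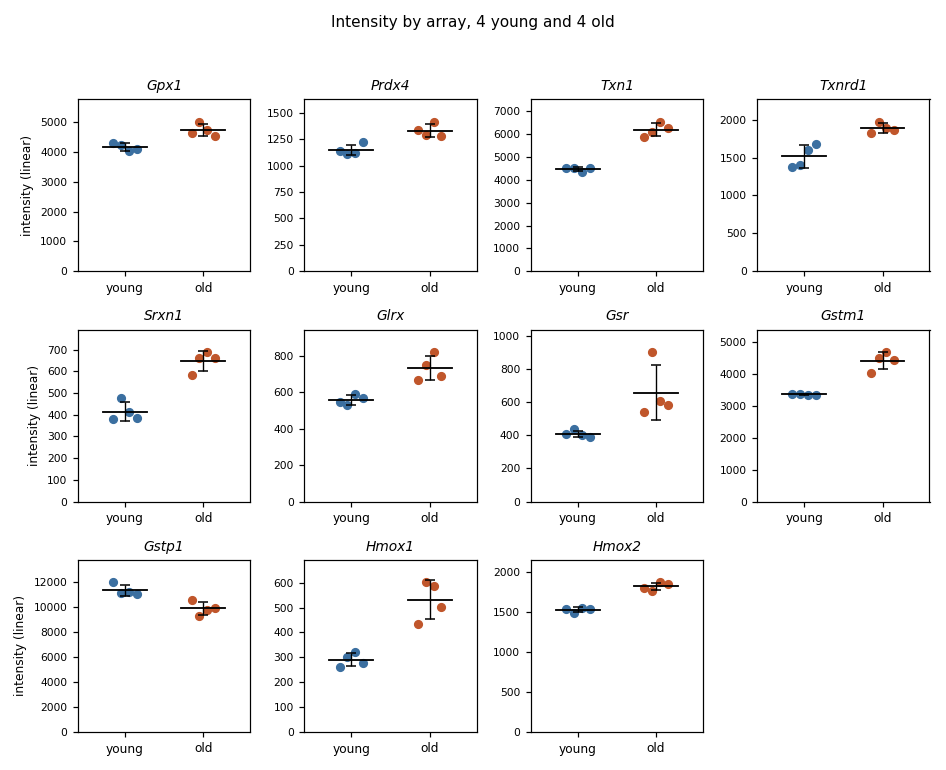
Linear intensity (vertical axis, from 0) of the 11 genes past an adjusted p of 0.05 in 4 young and 4 old arrays, each point an array in the order of its replicate number, with the mean as a line and the SD as a bar. No old array overlaps the young arrays in any of the 11, and for Gsr old replicate 2 at 901 lies far above the other old arrays at 538 to 604.

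The superoxide dismutases did not pass. Sod1, the cytosolic copper and zinc enzyme, was between 4958 and 5416 in the young arrays and between 4891 and 5149 in the old, a difference of -0.06 (95% interval -0.17 to 0.06). Sod2, the mitochondrial manganese enzyme, differed by 0.08 (95% interval -0.05 to 0.21). Sod3, the secreted enzyme, was at 274, 385, 548 and 535 in young arrays and 411 to 583 in old ones, and its interval of -0.25 to 0.70 was wide.

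Of catalase and 5 glutathione peroxidases, only Gpx1 passed, by a small margin. Catalase, Cat, which breaks down hydrogen peroxide in peroxisomes, was between 3700 and 4227 in the young arrays and between 3710 and 4210 in the old, and the ranges nearly coincided (difference -0.04, 95% interval -0.19 to 0.11). Gpx1, the main cytosolic glutathione peroxidase, was at 4297, 4246, 4032 and 4109 in young and 4637, 5012, 4736 and 4542 in old arrays. The groups did not overlap and the difference was 0.18 (standard error 0.05, adjusted p = 0.0452 from limma). The call was lost without any 1 of the 8 arrays, with differences of 0.15 to 0.20 and adjusted p from 0.0577 to 0.121, and with quantile normalization (0.16, adjusted p = 0.0657). Gpx4, which reduces lipid hydroperoxides in membranes, was at 10296, 9844, 9726 and 9559 in young and 10245, 11836, 11569 and 11144 in old arrays. Old replicate 1 alone lay within the young range, and the difference was 0.18 (95% interval 0.05 to 0.32, adjusted p = 0.0662). Without old replicate 1, Gpx4 was higher by 0.22 (adjusted p = 0.0270), and it passed under 6 of the 18 alternative settings listed below. Gpx3, the secreted peroxidase, had a difference of 0.43 that did not pass (adjusted p = 0.105). It was at 4441 and 4789 in young replicates 1 and 2 and at 7116 and 6512 in young replicates 3 and 4, while old replicate 1 was at 5968 and the remaining old ones lay between 8092 and 8274. Gpx7 and Gpx8, which reside in the endoplasmic reticulum, differed by -0.17 (adjusted p = 0.133) and -0.19 (adjusted p = 0.0908). Without old replicate 1, Gpx8 was lower by -0.24 (adjusted p = 0.0394), and it passed under 4 of the 18 alternative settings.

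The peroxiredoxins that could be read did not move together. Prdx4, the peroxiredoxin of the endoplasmic reticulum, was at 1134, 1111, 1119 and 1219 in young and 1337, 1286, 1414 and 1278 in old arrays, which did not overlap. It rose by 0.21 (standard error 0.06, adjusted p = 0.0323 from limma). Without young replicates 1, 2 or 3 or old replicates 1 or 3, each in turn, the call was lost (adjusted p = 0.0734, 0.0632, 0.0881, 0.0554 and 0.0882). It was also lost with quantile normalization (difference 0.14, adjusted p = 0.127), by the mean of its probe sets (0.17, adjusted p = 0.0670) and by the one of largest variance (0.33, adjusted p = 0.0655). Of its 3 other probe sets 1 rose, by 0.31, and the dimmest differed by -0.16. Prdx2, a cytosolic enzyme abundant in red cells, was between 3062 and 3136 in the young arrays and between 2602 and 2940 in the old, without overlap, but its difference of -0.13 did not pass (adjusted p = 0.137). Prdx3, of mitochondria, differed by -0.02 (95% interval -0.14 to 0.10).

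Of 7 glutathione transferases, Gstm1 rose and Gstp1 fell. Gstm1, a mu class enzyme, was at 3360, 3352, 3341 and 3342 in young and 4031, 4481, 4672 and 4422 in old arrays. The young arrays were nearly equal and all old arrays lay above them, with a difference of 0.39 (standard error 0.06, adjusted p = 0.00225 from limma). Mu class genes resemble each other in sequence, and the probe set used here is of a kind that Affymetrix marks as open to cross-hybridization. Of the 3 others of Gstm1, 2 lack that mark and rose by 0.26 and 0.39. The probe sets used for Gpx4, Txn2, Gsto1, Pgd and Nnt carry the mark too. Gstp1, the pi class enzyme, was at 11949, 11134, 11157 and 11011 in young and 10567, 9284, 9721 and 9862 in old arrays. It fell by 0.20 (standard error 0.06, adjusted p = 0.0440). This call was lost without each array other than old replicate 1 (differences of -0.21 to -0.17, adjusted p from 0.0627 to 0.106), and under median centring. Gsta4, which detoxifies the lipid aldehyde 4-hydroxynonenal, differed by -0.11 (95% interval -0.23 to 0.01). Gstt1 differed by 0.03 (95% interval -0.08 to 0.15). The microsomal enzymes Mgst1 and Mgst3 differed by 0.16 (adjusted p = 0.174) and 0.01 (adjusted p = 0.922). Gsto1, the omega class enzyme, varied more between arrays of an age than between ages. It was at 3723, 2892, 3716 and 6719 in young and 3397, 4296, 4596 and 6689 in old arrays, with replicate 4 of each age far above the rest. Its second probe set had the same pattern, at 1754 to 2190 and then 4970 in young and 2034 to 3165 and then 5595 in old arrays.

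Other probe sets were at hand for 23 of the 35 genes, 38 in all. Of the 10 genes that rose, 7 had such probe sets, and of these 14, 12 differed in the same direction and 7 passed upward with 0 downward. For the genes that did not pass, 16 of 24 other probe sets had the direction of the one used. All probe sets were read on the same arrays, so their agreement is not independent evidence. All 3 others of Gstm1 rose, by 0.26 to 0.50, and 2 of 3 others of Srxn1, by 0.42 and 0.60. The second probe set of Txn1, at a mean of 114 in young arrays, differed by 0.09 (adjusted p = 0.689), and that of Glrx by 0.24 (adjusted p = 0.0658). Both others of Txnrd1, at means of 118 to 172, did not pass, with differences of 0.05 and -0.21, so the rise of Txnrd1 rests on 1 probe set. The mean over the Txnrd1 probe sets differed by 0.06 (adjusted p = 0.474). Of the 24 other probe sets of genes that did not pass, 1 of Nfe2l2 was higher and 1 each of Sod1 (difference -0.24) and Mgst3 (difference -0.25) lower.

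**Figure D4:**
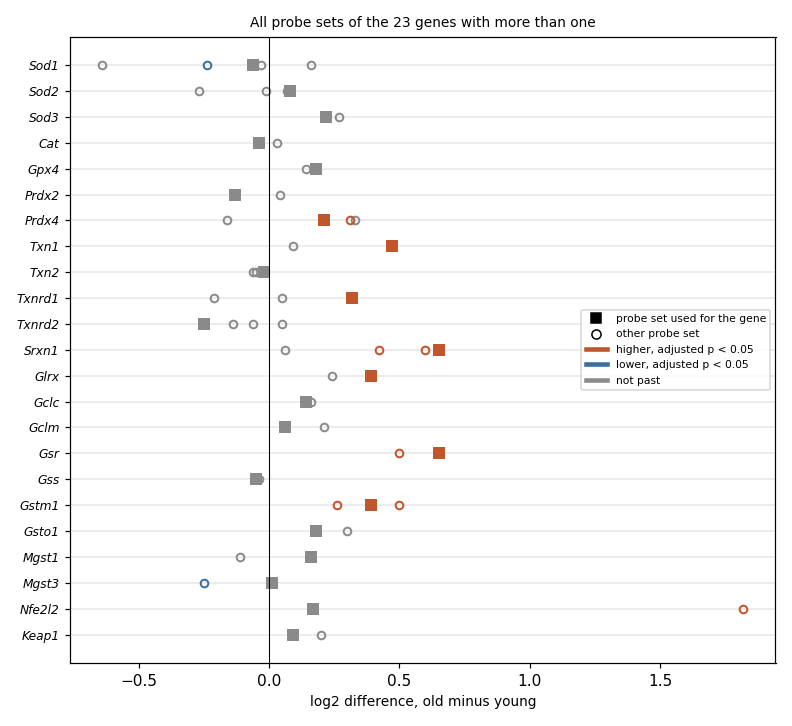
Difference in log2 intensity, old minus young (horizontal axis), of every probe set of the 23 genes with more than 1, with the probe set used for the gene as a square and the others as circles. The probe sets of Srxn1, Gsr and Gstm1 lie on the same side of 0, and the second probe set of Nfe2l2 lies at 1.82, apart from the first at 0.17.

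Genes that serve the same pathways, from lists of 83 genes of which 79 were measured, moved in both directions. In these lists 16 genes rose and 11 fell, 20.3% and 13.9%, against 11.8% and 9.56% of all genes. Msrb1, a selenoprotein that repairs oxidized methionine, was between 648 and 831 in the young arrays and between 1224 and 1728 in the old, a difference of 1.10 (standard error 0.12, adjusted p = 0.00047 from limma). Its mitochondrial relative Msrb2 fell by 0.32 (adjusted p = 0.00778). In the same list Txnip, which binds and inhibits thioredoxin, and Txndc17, a thioredoxin-like protein, each rose by 0.29 (adjusted p = 0.0263 and 0.00941). Pxdn, a peroxidase of basement membranes, fell by 0.68 (adjusted p = 0.00352), Sesn2, a stress-induced sestrin, by 0.29 (adjusted p = 0.0166) and Glrx2, the mitochondrial glutaredoxin, by 0.19 (adjusted p = 0.0293). Of 14 other glutathione transferases, Gstm2 rose by 0.30 (adjusted p = 0.00572) and Gsta2 by 0.19 (adjusted p = 0.0455), and Gstt2 fell by 0.36 (adjusted p = 0.0175). The shares of that list were 14.3% and 7.14%, near the 11.8% and 9.56% of all genes.

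Both biliverdin reductase genes rose. Blvra was between 594 and 670.2 in the young arrays and between 802 and 915 in the old, a difference of 0.49 (adjusted p = 0.0015 from limma). Blvrb was between 539 and 625 in the young arrays and between 817 and 969 in the old, a difference of 0.65 (adjusted p = 0.00057). For both genes every old array lay above every young one. Of the metallothioneins, which bind zinc and scavenge oxidants, Mt3 fell from 2511 ± 174 (SD, n = 4) to 1772 ± 36.5 (SD, n = 4), by 0.50 (adjusted p = 0.00088). Mt1 and Mt2 differed by -0.06 (adjusted p = 0.442) and -0.04 (adjusted p = 0.631).

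Of 10 partners and repressors of Nrf2, 4 rose and 1 fell. Maff and Mafk, small Maf proteins with which Nrf2 or Bach1 binds DNA, rose by 0.63 (adjusted p = 0.00397 from limma) and 0.35 (adjusted p = 0.0110). Mafg differed by 0.17 (adjusted p = 0.166). Bach1, which represses Hmox1 and other genes at the same elements, was between 658 and 784 in the young arrays and between 948 and 1302 in the old, a difference of 0.56 (standard error 0.10, adjusted p = 0.00576). Sqstm1, an autophagy receptor that binds Keap1, rose by 0.29 (adjusted p = 0.00442), although its probe set with the largest variance differed by -0.12 (adjusted p = 0.518). Rbx1, a subunit of the ligase through which Keap1 marks Nrf2, fell by 0.38 (adjusted p = 0.00293).

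The genes of glutathione turnover and of NADPH supply were also mixed. Anpep, an aminopeptidase that cuts the dipeptide left by glutathione breakdown and is also a surface antigen of myeloid cells, was between 306 and 394 in the young arrays and between 658 and 788 in the old, a difference of 1.09 (adjusted p = 8.9e-05 from limma). Ggct, which acts on gamma-glutamyl amino acids, rose by 0.46 (adjusted p = 0.0128) and Slc3a2, the heavy chain of the cystine transporter, by 0.39 (adjusted p = 0.0214). The light chain of that transporter, Slc7a11, differed by 0.06 (adjusted p = 0.711). Slc1a1, which carries glutamate and cysteine, and Chac2, which breaks glutathione down, each fell by 0.39 (adjusted p = 0.00578 and 0.00754). Pgd, an NADPH-forming enzyme of the pentose phosphate pathway, rose from 1536 ± 95.1 (SD, n = 4) to 2294 ± 151 (SD, n = 4), by 0.58 (adjusted p = 0.0008), and Idh1, the cytosolic isocitrate dehydrogenase, by 0.24 (adjusted p = 0.0413). Nnt, which makes NADPH in mitochondria, fell most, from 1880 to 2114 in young arrays to 831 to 1006 in old ones, by 1.19 (standard error 0.07, adjusted p = 3.4e-05), and its other probe sets differed by -1.40 and 0.01. A deletion in Nnt is known from the C57BL/6J substrain, and the labels do not say whether both ages came from 1 substrain, so age and substrain cannot be told apart here. Of 10 selenoproteins and genes of their synthesis, only Secisbp2, which helps ribosomes insert selenocysteine, passed, falling by 0.23 (adjusted p = 0.0346).

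Of the 27 genes of these lists that passed, 21 kept the call without any 1 array. Txnip, Glrx2, Gsta2, Slc3a2, Idh1 and Secisbp2 lost it without at least 1 array, with adjusted p up to 0.0754, 0.0826, 0.101, 0.0591, 0.0964 and 0.0971. By the mean of a gene's probe sets 6 lost it. Ggct then differed by 0.03 (adjusted p = 0.6), Glrx2 by -0.02 (adjusted p = 0.822), Sqstm1 by 0.08 (adjusted p = 0.43), Sesn2 by -0.10 (adjusted p = 0.274), Secisbp2 by -0.09 (adjusted p = 0.21) and Slc1a1 by -0.30 (adjusted p = 0.0582). Median centring ended the calls of Glrx2 and Secisbp2 (adjusted p = 0.063 and 0.0553), and quantile normalization those of Gsta2 and Idh1 (adjusted p = 0.0885 and 0.11). Without old replicates 2 and 4, 13 lost the call, namely Chac2, Ggct, Glrx2, Gsta2, Gstt2, Idh1, Mafk, Msrb2, Secisbp2, Sesn2, Slc3a2, Txndc17 and Txnip, with adjusted p of 0.0585 to 0.173. Of 10 macrophage markers 8 rose with the genes that rose here, among them Cd68 by 1.47 (adjusted p = 3.7e-05 from limma) and Tyrobp by 1.10 (adjusted p = 3.3e-05). Csf1r and Cd14 did not pass, with differences of -0.04 (adjusted p = 0.691) and 1.11 (adjusted p = 0.0685). The part of a larger macrophage share in the rises of Hmox1, Msrb1, Blvrb, Anpep or the thioredoxin genes was not tested.

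**Figure D5:**
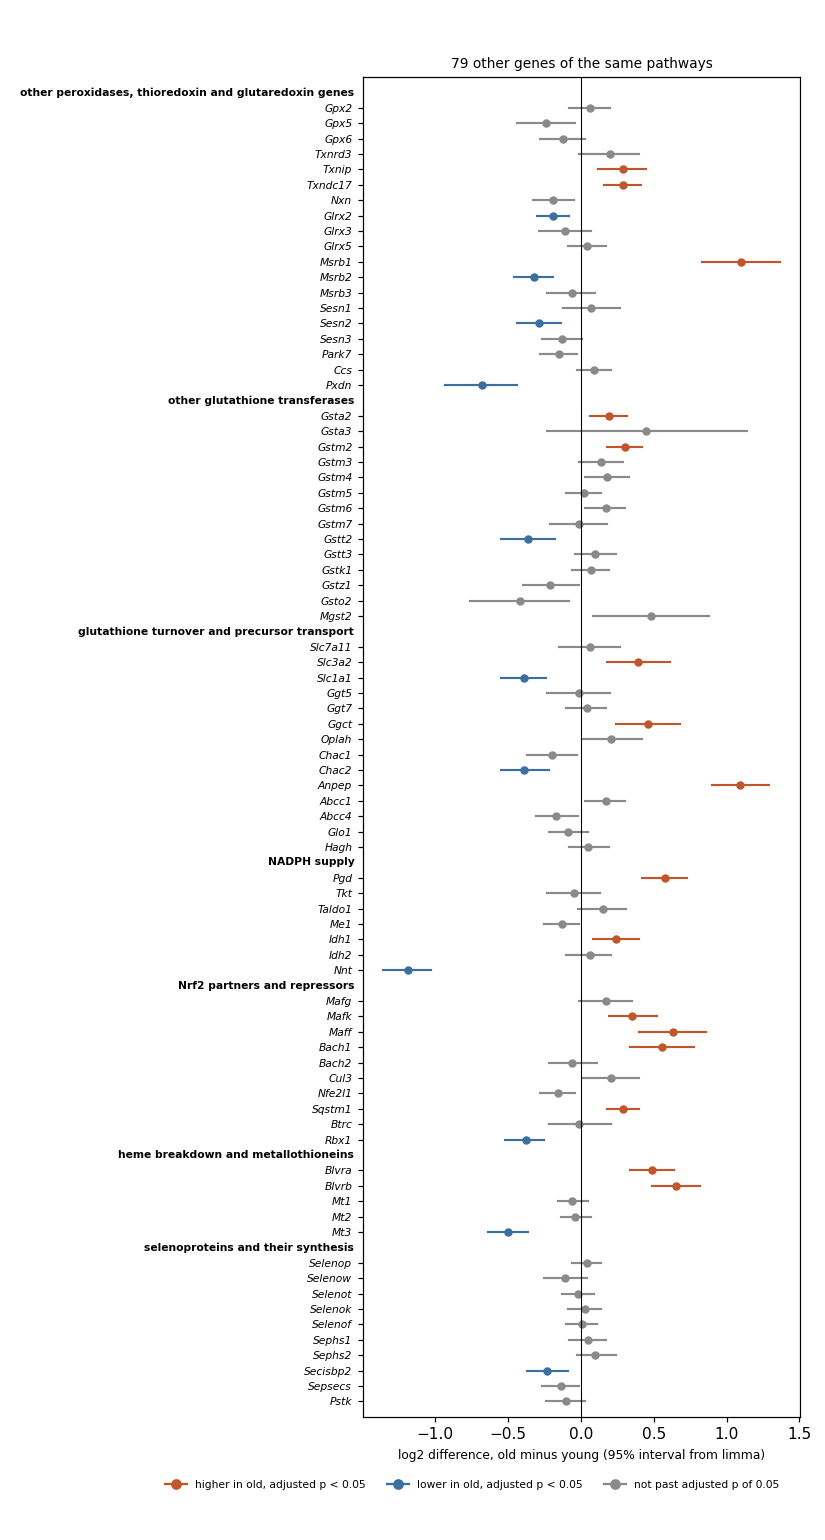
Difference in log2 intensity, old minus young (horizontal axis), with its 95% interval from limma, for 79 other genes of the same pathways in 7 lists. Msrb1 at 1.10 and Anpep at 1.09 lie farthest to the right and Nnt at -1.19 farthest to the left.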

How the data were processed

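Each sample's RPE/choroid RNA was read on an Affymetrix array of the type Mouse 430 2.0. The deposited table holds linear intensity values that the authors normalized by a step it does not name. The study's methods give RMA, Dchip2006 and BRB-ArrayTools as its routes. RMA gives log2 values, so the table is not plain RMA output. Detection calls were not used here.

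A floor of 1 was applied before log2, which touched 8 to 14 values on an array. Of 45101 probe sets, 64 controls were left out. Genes were taken from the 34945 probe sets with 1 gene name (932 had several and 9160 none), using for each gene the brightest by mean log2. limma 3.58.1 in R 4.3.3 (lmFit, eBayes) compared old with young, with no other covariate, and Benjamini-Hochberg adjustment over 45037 probe sets. The number of arrays limits the precision. The members and lists were chosen with earlier results of these data known. All 38 members are named, and of the other pathway lists every gene that passed where 5 or fewer did so in a direction. Of the marker lists only some genes are named. Lists for T and B cells, erythroid cells, skeletal muscle and fibroblasts were also read and are not described. Mafg, Mt1, Mt2 and Slc7a11 were added after their values were seen. The alternatives were quantile normalization, median centring, a filter on low values, a floor of 16, trend and robust estimation, the replicate number as a block, weights per array, other probe set choices and leaving out arrays. limma was tested on simulated data. Promoters are RefSeq windows of GRCm38.p6.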

Additional observations from a re-analysis of the deposited data

Results flagged for a closer look

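In 5 of 70 groups of 4 arrays, 1 for each gene and age, a single array lay far from the other 3, by a gap that passed Dixon's critical value for its share of the group's range. Chance alone flags about 5% of such groups. Gpx3 in old replicate 1 was at 5968, where the other old arrays were at 8092 to 8274. Txn1 in young replicate 3 was at 4354, where the other young arrays were at 4509 to 4541. Txnrd2 in old replicate 2 was at 453.3, where the other old arrays were at 364 to 377. Gstp1 in young replicate 1 was at 11949, where the other young arrays were at 11011 to 11157. Mgst3 in young replicate 1 was at 483.6, where the other young arrays were at 505 to 508.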

How the results depend on the processing

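Of the 11 genes that passed, Txn1, Srxn1, Glrx, Gsr, Gstm1 and Hmox1 stayed past an adjusted p of 0.05 under all 18 alternatives, and 5 lost the call under at least 1. The count of genes that rose was 6 without old replicates 2 and 4 and 8 to 10 with 1 array left out. With median centring, the filter on low values, the floor of 16, trend and robust estimation or array weights it was 11, with Gpx4 added. The count that fell was 2 with quantile normalization, with trend and robust estimation and by the probe set of largest variance, 3 with array weights, 0 with median centring, with the replicate number as a block and without old replicates 2 and 4, and 0 to 2 with 1 array left out. With the replicate block 9 rose, Gpx3 among them (difference 0.43, adjusted p = 0.0373 from limma). Young and old arrays of equal number deviated from their age means with a correlation of 0.0971 for replicate 1 and of 0.0190 to 0.0427 for the others. Arrays were closest to their own number for replicate 1 alone. The labels give a number and no pairing, and correlations over all probe sets do not show whether single genes go with it. Gsto1 was highest in replicate 4 of each age. The values reported carry no block, and with it Gpx1, Gstp1 and Prdx4 lost the call. The median difference was 0.032 with quantile normalization, 0.116 with median centring, 0.055 by the mean of probe sets, 0.058 without old replicates 2 and 4, 0.136 by the probe set of largest variance and 0.065 to 0.114 with 1 array left out. Of the other probe sets, 4 rose and 0 fell without old replicates 2 and 4, 1 fell with median centring, 0 fell with the replicate block, and 5 to 10 rose and 0 to 2 fell with 1 array left out. Of the other pathway genes, 9 rose and 5 fell without old replicates 2 and 4. By the probe set of largest variance, Mgst3 was lower by -0.25 and Sqstm1 by -0.12. The count past a fold over 2 was 0 throughout. The causes of these shifts were not tested, except that leaving out arrays leaves fewer samples. Detection by signal over background could not be judged, since the table holds no detection calls.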

Other observations

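Some genes divided the young arrays in the same way. Gpx3, Gsta3, Sod3 and Mgst1 were lower in young replicates 1 and 2 than in young replicates 3 and 4. Gsta3, an alpha class glutathione transferase, was at 535 and 833 in the first pair and at 1448 and 1459 in the other. Mgst1 was at 5411 and 5605.0 against 6547 and 6649. Gsta3 was at 1027 to 1555 in the old arrays, and its difference between the ages was 0.45 (adjusted p = 0.33 from limma). These genes were picked after their values were seen, and the division was not tested.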
